A study of Mus musculus with 8 samples.

Results

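The 9 genes described here encode cell surface proteins whose precursors are known FURIN substrates. They are the receptors for insulin-like growth factor 1 (Igf1r), insulin (Insr) and hepatocyte growth factor (Met), the endocytic receptor Lrp1, the Notch receptors Notch1 and Notch2, and the integrin α chains αv (Itgav), α5 (Itga5) and α6 (Itga6). They were chosen by name and represent 9 of 37018 genes and transcripts on the array, read by 14 of 55681 gene probes. Where a gene had several probes, the brightest over all arrays was used, and all 9 genes passed the filter on dim signals. Of the 37018, 36947 were tested in the comparison of genotypes, so passing the filter does not show that a gene was detected. Genes called measured below passed this filter, and some of them were well above background in no channel.

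FURIN is a serine protease of the proprotein convertase family that cycles between the trans-Golgi network and the cell surface and cuts precursor proteins behind clusters of basic residues. In the insulin receptor family, MET, LRP1, the Notch receptors and the integrin α chains that lack an I domain, the cut separates the precursor into subunits that remain attached to each other. Macrophages use these proteins to sense growth factors, to take up protease complexes and cell remnants, to read Notch ligands on neighboring cells, and to hold on to fibronectin, vitronectin and laminin. The arrays measured the mRNA of these genes, and neither precursor cleavage nor protein at the cell surface was measured.

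The macrophages were taken from the peritoneal cavity of mice of the C57BL/6 background that were either LysMCre-fur(fl/fl) (KO) or their WT littermates. LysMCre is a Cre recombinase carried by the lysozyme locus Lyz2 and active in myeloid cells, so that floxed fur alleles are removed only in cells that have expressed lysozyme. Whether the WT littermates carried the Cre or a floxed allele, and the age and number of animals behind a sample, are not given in the sources used here. Adherent cells were left unstimulated or were stimulated with lipopolysaccharide (LPS), the cell wall component of Gram-negative bacteria that Toll-like receptor 4 recognizes, at 1 μg/ml for 1, 4 or 24 h. Each time point had 2 two-color arrays, labeled as biological replicates, and on each array the RNA of KO cells was hybridized together with that of WT cells from that time. KO RNA was in Cy5 on the arrays of replicate 1 and in Cy3 on those of replicate 2, so that replicate and dye orientation cannot be told apart. All 8 arrays were on the same slide, the unstimulated and 1 h arrays in its first row and the 4 h and 24 h arrays in its second, and a comparison of 4 h or 24 h with unstimulated cells is therefore also a comparison of the rows. The series has a single unstimulated group and none matched to each LPS time, so that LPS and time in culture cannot be told apart.

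Levels below are log2 intensities of a probe after normalization, in the order of replicate 1 and replicate 2, and are compared between samples of the same gene only. A difference of 1 on this scale is a 2-fold change. A gene is called changed at a Benjamini-Hochberg adjusted p under 0.05 in limma, adjusted over all genes and transcripts tested. In each channel 43.8% to 51.3% of gene spots were well above background. All 10 measured macrophage markers were well above background in all 16 channels, and so were all 10 B cell markers. The summed level of the B cell markers was 16.4 to 17.1 in unstimulated cells and at 1 h, 15.2 to 15.8 at 4 h and 15.5 to 15.8 at 24 h, and that of the macrophage markers, among them Lyz2, was 18.8 to 19.5, 18.5 to 18.8 and 17.4 to 18.1. The mast cell markers summed to 13.1 to 14.0 in unstimulated cells, 13.6 to 14.1 at 1 h, 15.0 to 15.8 at 4 h and 13.6 to 14.1 at 24 h, where Hdc was the only marker of 8 called higher at 4 h in WT cells, and at 24 h 1 was higher and 5 were lower. The neutrophil markers, of which S100a8, Camp and Elane were well above background in all channels, summed to 11.8 to 12.3 up to 4 h and to 14.54 to 16.01 at 24 h, when S100a8 and Camp were called higher and Elane lower in WT cells. The mesothelial and fibroblast markers summed to 10.71 to 10.95 in unstimulated cells and at 1 h, 11.02 to 11.25 at 4 h and 11.56 to 11.91 at 24 h. Of these 15 markers, 3 were called higher and 0 lower in WT cells at 4 h (1 and 1 in KO cells). Of the other marker lists, 2 of 10 T and NK cell, 4 of 8 neutrophil (Ngp, S100a9, Mpo and Cxcr2), 1 of 8 mast cell, 2 of 15 mesothelial and fibroblast and 3 of 6 endothelial markers were well above background in no channel. Between the genotypes, the macrophage sum at 24 h was 17.38 to 17.54 in KO and 17.99 to 18.08 in WT cells. The mast cell markers had a median log2 KO/WT ratio of 0.47 over the time points, with 0 of 8 called (6 with the replicate as a block). In RNA of mixed cultures, fewer cells of a type and less RNA per cell cannot be told apart.

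Furin itself was lower in KO than in WT cells on 6 of 8 arrays. In WT cells its level was 11.56 and 11.48 unstimulated, 11.27 and 11.24 at 1 h, 12.02 and 11.65 at 4 h, then 11.19 and 11.06 at 24 h. In KO cells it was 10.97 and 10.63, 10.71 and 10.69, 12.02 and 11.97, and 10.60 and 10.38 at the same times. The 2 arrays on which KO was not lower were those at 4 h, with log2 KO/WT ratios of 0.00023 and 0.33. Averaged over the time points Furin was 1.35-fold lower in KO cells (log2 KO/WT -0.44 ± 0.06 SE, adjusted p = 0.0220), a call that was lost when any array but replicate 1 at 24 h was left out (adjusted p = 0.0610 to 0.0915). This average treats the 8 arrays as independent of each other. At single time points Furin was called only with the replicate as a block, in unstimulated cells (adjusted p = 0.0122), at 1 h (0.0478) and at 24 h (0.0227). Within KO cells Furin rose 2.29-fold from unstimulated to 4 h (adjusted p = 6.58e-06). Whether the probe lies in the deleted part of the gene is not given in the sources used here, so at 4 h the labels rest on Lyz2, whose level was 2.12-fold lower in the libraries labeled KO but did not pass the test there (adjusted p = 0.0562, and 0.00186 with the replicate as a block), and on the dyes given for each sample.

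Most of the 9 genes differed in level between cells with LPS and unstimulated cells. They split into a group that was higher and a group that was lower. In WT cells 1 of the 9 was called at 1 h, where 8.50% of all genes and transcripts were called, 9 at 4 h (34.7% of all) and 6 at 24 h (30.4% of all). In KO cells the counts were 1 at 1 h (7.54% of all), 8 at 4 h (36.0%) and 5 at 24 h (28.6%). These shares cover all features tested, detected or not, and in each channel 43.8% to 51.3% of gene spots were well above background. Among the members, only Insr and Notch1 were not well above background in some channel. No share among detected features alone is given. Between 4 h and 24 h, a contrast chosen after the values were seen, 4 of the 9 changed in WT cells (29.7% of all) and 7 in KO cells (30.7%). The KO count was 4 without replicate 1 at 4 h and 3 with normalization within arrays only. At 4 h the genes for Itga5, Itgav, Notch2, Notch1 and Met were higher in both genotypes, and those for Itga6, Lrp1 and Insr were lower. Igf1r was lower in WT cells at 4 h and in both genotypes at 24 h. Comparisons at the 3 LPS times share the same unstimulated samples and are not independent of each other.

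**Figure D1:**
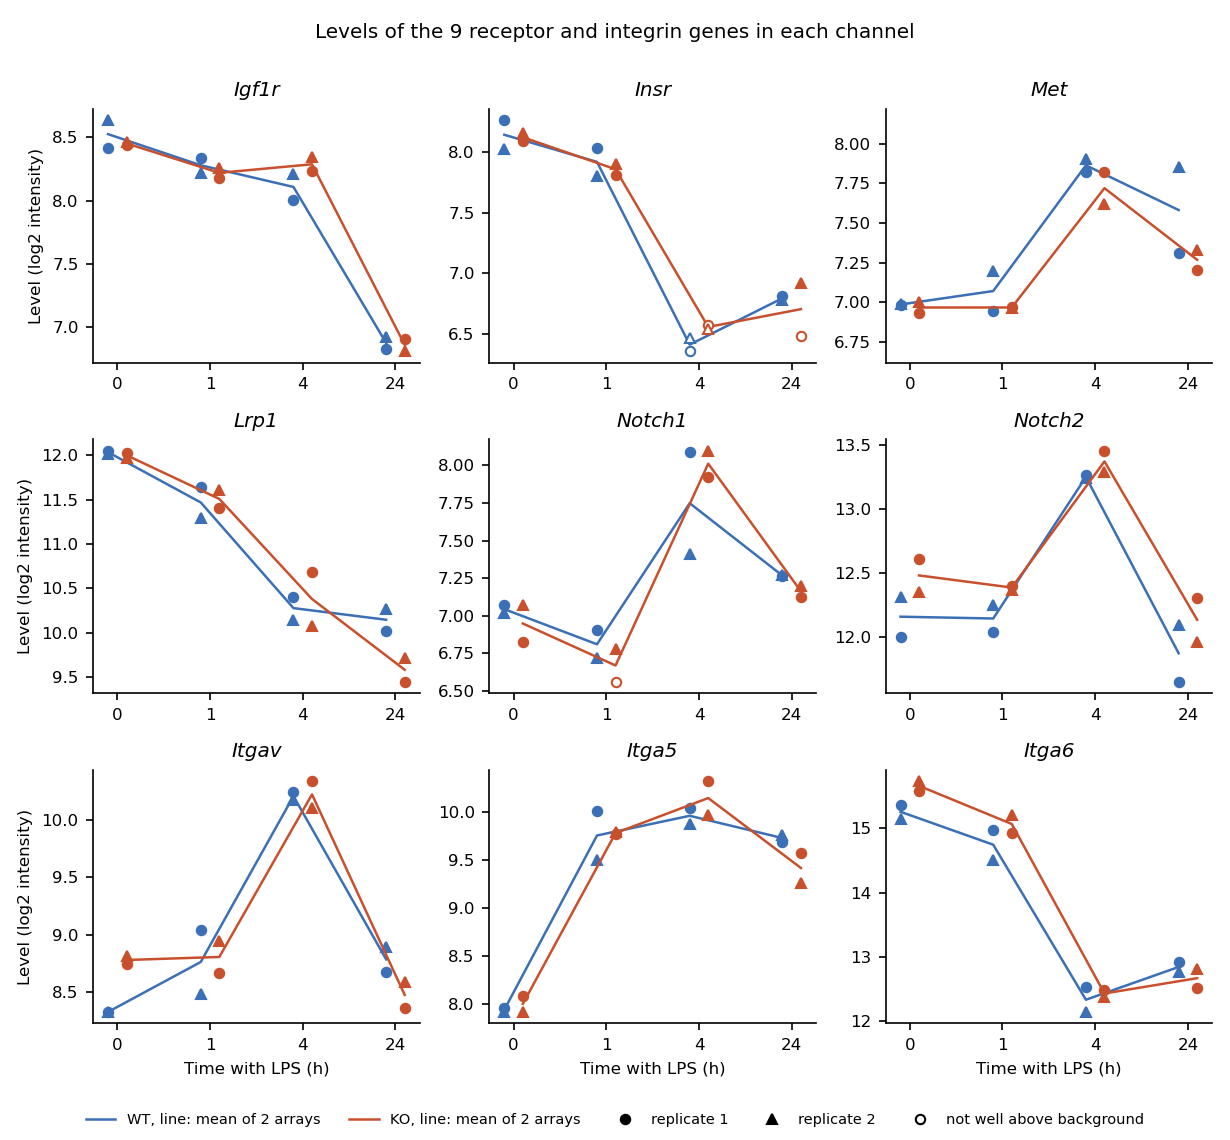
Level of each gene (y axis, log2 intensity, with a scale of its own per panel) against time with LPS in h (x axis, time points evenly spaced) in WT and KO cells; symbols are single arrays, lines join the means of 2 arrays, and open symbols are not well above background. Itga6 fell from above 15 to below 13 within 4 h, whereas Itga5 rose from 7.96 and 7.92 to 10.01 and 9.5 in WT cells within 1 h.

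The growth factor receptors did not move together. Igf1r, the receptor tyrosine kinase for IGF-1, had a WT level of 8.42 and 8.64 in unstimulated cells, 8.34 and 8.22 at 1 h, 8.0 and 8.21 at 4 h, then 6.82 and 6.92 at 24 h. In KO cells the level was 8.44 and 8.46, 8.18 and 8.26, 8.23 and 8.34, and 6.91 and 6.81. The 24 h arrays lay below all others in both genotypes. Igf1r was 3.15-fold lower at 24 h in WT cells (log2 -1.65 ± 0.11, adjusted p = 4.79e-08) and 3.02-fold lower in KO cells (log2 -1.59 ± 0.11, adjusted p = 7.26e-08), and with the processed signals of Feature Extraction the differences were -2.91 and -2.86. At 4 h it was 1.34-fold lower in WT cells (adjusted p = 0.00674), a call that was lost without replicate 1 at 4 h (adjusted p = 0.0849) or without unstimulated replicate 2 (0.111). Over the settings run, the WT difference at 4 h lay between -0.85 and -0.31. The KO difference at 4 h was -0.17 ± 0.11 (adjusted p = 0.287), but -0.62 and called with normalization within arrays only (adjusted p = 0.00181), and the change of the KO/WT ratio between unstimulated cells and 4 h did not pass the test (0.25 ± 0.14).

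Insr, whose product binds insulin and triggers glucose uptake and growth signaling, was lower as early as 4 h. Its WT level was 8.26 and 8.02 unstimulated and 8.03 and 7.80 at 1 h, then 6.36 and 6.47 at 4 h, then 6.81 and 6.78 at 24 h. The KO levels were 8.09 and 8.15, 7.81 and 7.90, 6.58 and 6.54, and 6.49 and 6.92. At 4 h the probe was not well above background on any array in either genotype, so the fold values given for that time are uncertain. In WT cells the fall was 3.13-fold against a floor. The floor was the higher of the probe's own signal and the lowest signal well above background on each array. Channels were scaled to a common mean intensity distribution (Aquantile). In KO cells the probe's own signal was the higher on both arrays and still not well above background. The floor is therefore no detection limit of this probe, and 3.13-fold is not a lower bound. The fit, on quantile normalized channels, gave 3.31-fold in WT and 2.95-fold in KO cells (adjusted p = 2.21e-07 and 6.03e-07). At 24 h Insr was 2.54-fold lower in WT cells (adjusted p = 4.00e-06) and 2.67-fold lower in KO cells (2.66e-06), with KO replicate 1 not well above background. The other 2 Insr probes fell less, by 0.92 and 0.81 on the log2 scale at 4 h and by 0.50 and 0.32 at 24 h in WT cells. With the mean of all probes the difference at 24 h was -0.72 in WT and -0.77 in KO cells.

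Met, the receptor for hepatocyte growth factor, went the other way. In WT cells the level was 6.98 and 6.99 unstimulated, 6.94 and 7.20 at 1 h, 7.82 and 7.90 at 4 h, then 7.31 and 7.85 at 24 h. In KO cells it was 6.93 and 7.0, 6.97 and 6.96, 7.82 and 7.62, and 7.21 and 7.33. Every 4 h array exceeded every unstimulated array. Met rose 1.84-fold at 4 h in WT cells (log2 0.88 ± 0.15, adjusted p = 0.000281) and 1.68-fold in KO cells (log2 0.75 ± 0.15, adjusted p = 0.000988), the latter call being lost with normalization within arrays only (adjusted p = 0.0765). At 24 h WT cells were still 1.51-fold higher (adjusted p = 0.00675), a call that rested on replicate 2 (adjusted p = 0.126 without it), while the KO difference was 0.30 ± 0.15 (adjusted p = 0.171).

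Among 24 measured genes of insulin, IGF and MET signaling, 3 were higher and 6 lower in WT cells at 4 h, and 2 were higher and 8 lower at 24 h. Of all features tested, 15.5% were higher and 19.2% lower at 4 h, and 13.5% higher and 16.8% lower at 24 h. Socs1, which encodes a suppressor of cytokine signaling, rose 51.0-fold at 4 h, and Socs3, a suppressor that also binds the insulin receptor, rose 26.5-fold. Akt1, the kinase downstream of these receptors, was 3.07-fold lower and Grb2, an adaptor that binds MET and IRS proteins, 2.22-fold lower. The ligand gene Igf1 was 58.1-fold lower at 24 h in WT cells (adjusted p = 6.77e-10) and 64.9-fold lower in KO cells (6.31e-10). Hgf was 2.35-fold lower in WT cells at 4 h, while its receptor gene Met was higher. At 24 h Hgf was not well above background on any array, and against the floor described for Insr it was 3.10-fold lower in WT cells.

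Lrp1 encodes a large endocytic receptor that clears protease-inhibitor complexes and apolipoprotein E. Its WT level was 12.05 and 12.02 unstimulated, 11.64 and 11.29 at 1 h, 10.41 and 10.15 at 4 h, then 10.02 and 10.27 at 24 h. The KO level was 12.03 and 11.97, 11.41 and 11.61, 10.69 and 10.07, and 9.45 and 9.71. Arrays of 1 h, 4 h and 24 h lay below the unstimulated arrays throughout, and the lowest values of all were the KO values at 24 h. Lrp1 fell 3.38-fold at 4 h in WT cells (log2 -1.76 ± 0.18, adjusted p = 2.96e-06) and 3.07-fold in KO cells (log2 -1.62 ± 0.18, adjusted p = 6.66e-06). At 24 h the fall was 3.70-fold in WT cells (adjusted p = 2.35e-06) and 5.34-fold in KO cells (adjusted p = 2.30e-07). The difference at 1 h did not pass the test in WT cells (-0.57 ± 0.18, adjusted p = 0.0830) or in KO cells (-0.49 ± 0.18, adjusted p = 0.149).

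Of 13 measured LRP1 partners and relatives, 1 was higher and 4 were lower in WT cells at 4 h, where 15.5% of all features were higher and 19.2% lower. The increase was that of Plaur, the urokinase receptor whose occupied form LRP1 internalizes, at 5.09-fold. Lrp6, a Wnt co-receptor, was 3.50-fold lower and Lrpap1, the chaperone of LRP1 in the endoplasmic reticulum, 2.05-fold lower.

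Notch1 and Notch2 are receptors that are cut again on ligand contact to release an intracellular transcription factor. Notch1 had a WT level of 7.07 and 7.02 unstimulated, 6.90 and 6.72 at 1 h, 8.09 and 7.41 at 4 h, then 7.26 and 7.27 at 24 h. Its KO level was 6.82 and 7.07, 6.56 and 6.78, 7.92 and 8.10, and 7.12 and 7.20, with KO replicate 1 at 1 h not well above background. The 4 h arrays were the highest in either genotype. Notch1 rose 1.63-fold at 4 h in WT cells (log2 0.70 ± 0.18, adjusted p = 0.00649) and 2.09-fold in KO cells (log2 1.06 ± 0.18, adjusted p = 0.000268). The WT call was lost without replicate 1 at 4 h (adjusted p = 0.0817) and with normalization within arrays only (0.197).

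Notch2 was more than 4 log2 units brighter on the array than Notch1, which as a difference between probes says nothing of the amounts of mRNA. In WT cells the level was 12.00 and 12.31 unstimulated, 12.03 and 12.25 at 1 h, 13.26 and 13.24 at 4 h, then 11.65 and 12.09 at 24 h. In KO cells it was 12.60 and 12.35, 12.40 and 12.37, 13.46 and 13.29, and 12.30 and 11.96. The increase was transient, since all 4 h arrays were higher than all others. Notch2 rose 2.14-fold at 4 h in WT cells (log2 1.09 ± 0.17, adjusted p = 0.000140) and 1.86-fold in KO cells (adjusted p = 0.000786). From 4 h to 24 h it fell 2.61-fold in WT cells (adjusted p = 2.58e-05) and 2.36-fold in KO cells (6.38e-05). At 24 h the difference from unstimulated KO cells was -0.35 ± 0.17 (adjusted p = 0.170, and 0.0344 with the replicate as a block). The second, dimmer Notch2 probe rose by 1.34 at 4 h in WT cells and differed by 0.19 at 24 h, where the first differed by -0.29.

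Of 22 measured genes of the Notch pathway and its targets, 1 was higher and 10 were lower in WT cells at 4 h, and 1 was higher and 13 lower at 24 h, with medians of -0.39 and -0.45. Of all features, 15.5% were higher and 19.2% lower at 4 h, and 13.5% and 16.8% at 24 h. Over all features tested the median lay between -0.02 and 0.0016 in the comparisons with LPS. Rfng, a glycosyltransferase that modifies Notch, was 3.99-fold lower at 4 h, and Psen2, a catalytic subunit of the γ-secretase that releases the intracellular domain, 3.87-fold lower. Dtx4, which encodes a ligase of the Deltex family, was 4.05-fold lower at 24 h. Among the ligands, Jag1 rose 3.84-fold at 1 h in WT cells (adjusted p = 4.05e-05) and 2.61-fold in KO cells (0.000902). Dll1 was well above background on both arrays at 4 h and on neither unstimulated array. Against the floor described for Insr it was 3.95-fold higher in WT cells and 4.37-fold higher in KO cells.

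Of the 3 integrin α chains, 2 rose and 1 fell with LPS. Itga5, the α chain of the fibronectin receptor α5β1, was the only member called at 1 h. In WT cells its level was 7.96 and 7.92 unstimulated, 10.01 and 9.5 at 1 h, 10.04 and 9.87 at 4 h, then 9.69 and 9.76 at 24 h. In KO cells it was 8.09 and 7.92, 9.77 and 9.79, 10.32 and 9.97, and 9.57 and 9.26. All arrays with LPS stood above the unstimulated arrays by more than the replicates differed. Itga5 rose 3.51-fold at 1 h in WT cells (log2 1.81 ± 0.16, adjusted p = 6.64e-06) and 3.42-fold in KO cells (log2 1.78 ± 0.16, adjusted p = 1.00e-05). It was 4.05-fold higher at 4 h in WT cells (adjusted p = 2.49e-07) and 4.40-fold in KO cells (adjusted p = 1.44e-07), and at 24 h 3.45-fold and 2.66-fold.

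Itgav encodes the α chain shared by the vitronectin receptors. Its WT level was 8.33 and 8.33 unstimulated, 9.04 and 8.49 at 1 h, 10.24 and 10.17 at 4 h, then 8.68 and 8.89 at 24 h. The KO level was 8.74 and 8.82, 8.67 and 8.95, 10.34 and 10.11, and 8.37 and 8.59. At 4 h the WT and KO arrays overlapped, in unstimulated cells the KO arrays lay above the WT arrays without a difference that passed the test, and at 24 h the KO arrays lay below the KO unstimulated arrays while the WT arrays lay above theirs. Itgav rose 3.67-fold at 4 h in WT cells (log2 1.88 ± 0.17, adjusted p = 6.27e-07) and 2.71-fold in KO cells (log2 1.44 ± 0.17, adjusted p = 8.53e-06). At 24 h the differences were 0.46 ± 0.17 in WT cells (adjusted p = 0.0550, and 0.0424 with the replicate as a block) and -0.30 ± 0.17 in KO cells (adjusted p = 0.226). The second Itgav probe gave 0.90 in WT and 0.35 in KO cells at 24 h, so that the probes disagree in sign for KO cells.

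Itga6, the α chain of the laminin receptors, showed the largest change of the 9 genes. Its WT level was 15.37 and 15.15 unstimulated, 14.98 and 14.51 at 1 h, 12.52 and 12.14 at 4 h, then 12.92 and 12.77 at 24 h. In KO cells it was 15.59 and 15.74, 14.93 and 15.21, 12.49 and 12.37, and 12.52 and 12.81. The gap between the 1 h and the 4 h arrays was several times the difference between replicates. Itga6 fell 7.61-fold at 4 h in WT cells (log2 -2.93 ± 0.18, adjusted p = 1.71e-08) and 9.41-fold in KO cells (log2 -3.23 ± 0.18, adjusted p = 6.77e-09). At 24 h it was 5.34-fold lower in WT cells (adjusted p = 1.77e-07) and 7.97-fold lower in KO cells (adjusted p = 2.42e-08). The 1 h difference was -0.51 ± 0.18 in WT cells (adjusted p = 0.114, and 0.00902 with the replicate as a block) and -0.59 ± 0.18 in KO cells (0.0663, and 0.00387 with the block). The falls of Itga6, Lrp1 and Insr at 4 h went with the lower summed B cell and macrophage marker levels given above and the fall of Igf1r at 24 h with the lower macrophage marker level. Not all markers fell, since 2 of 10 B cell markers were higher and 5 lower in WT cells at 4 h (2 and 7 in KO cells), and of 10 macrophage markers 1 was higher and 6 were lower at 4 h (1 and 5 in KO cells) and 2 were higher and 7 lower at 24 h (1 and 7 in KO cells). The part of these cell types in the changes was not tested.

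**Figure D2:**
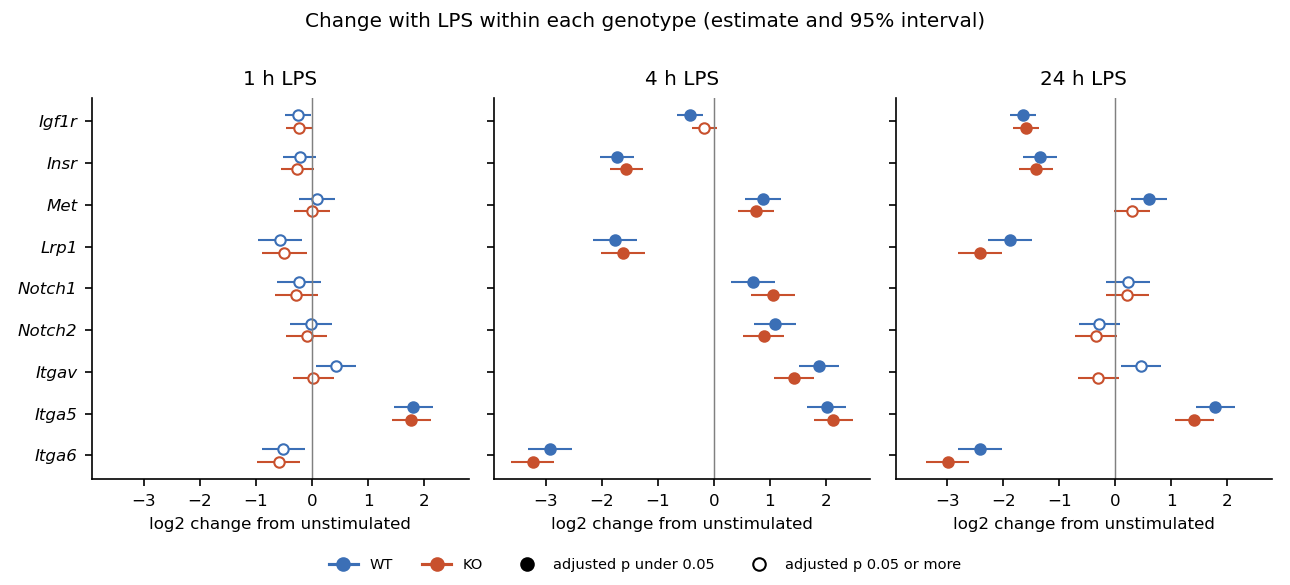
Change of each gene with LPS (x axis, log2 difference from unstimulated cells of the same genotype) at 1, 4 and 24 h in WT and KO cells; points are estimates, bars 95% confidence intervals, and filled points have an adjusted p under 0.05. Only Itga5 was called at 1 h, and Itga6 had the largest falls at 4 h and 24 h.

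Of the other integrin genes, 2 of 8 measured β chains were higher and 4 lower in WT cells at 4 h (15.5% and 19.2% of all features), and as many at 24 h (13.5% and 16.8%). Itgb1, the partner of α5 and α6, rose 2.16-fold at 4 h (adjusted p = 3.14e-05). Of the β chains that pair with αv, Itgb5 was 2.86-fold lower at 4 h and 6.13-fold lower at 24 h. Itgb8, which pairs only with αv, was on neither unstimulated array well above background. Against the floor described for Insr it was 1.80-fold higher at 4 h and 3.08-fold higher at 24 h in WT cells. Among 7 measured α chains with an I domain, which FURIN does not cleave, Itgal, the leukocyte chain of LFA-1, rose 5.08-fold at 4 h in WT cells (adjusted p = 7.78e-08). Itgam, the CD11b chain, was 2.49-fold lower and Itgax, the CD11c chain, 1.56-fold lower. Fn1, which encodes the α5β1 ligand fibronectin, was 33.4-fold lower at 24 h in WT cells (adjusted p = 1.44e-09) and 61.5-fold lower in KO cells (adjusted p = 4.48e-10), at a time when Itga5 was higher.

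**Figure D3:**
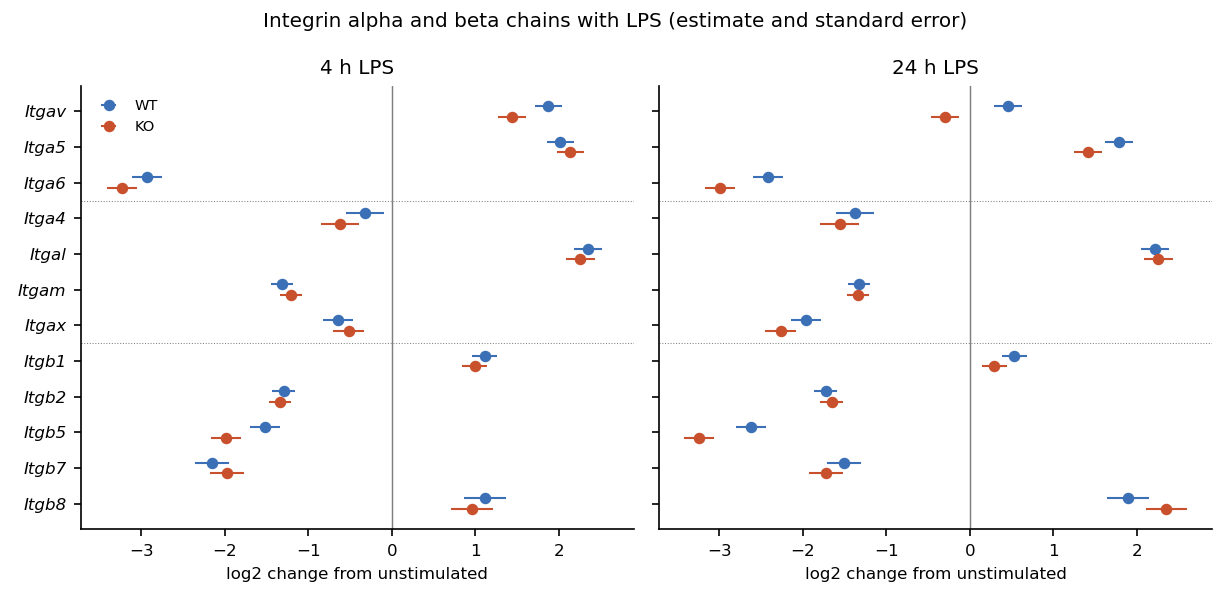
Change of 12 integrin chain genes with LPS (x axis, log2 difference from unstimulated cells) at 4 h and 24 h in WT and KO cells; points are estimates and bars standard errors. From top to bottom the dotted lines separate the 3 α chains described here, 4 other α chains and 5 β chains, and Itgb8 was not well above background in unstimulated cells.

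Of 14 other receptors processed by proprotein convertases that were measured, 1 was higher and 5 were lower in WT cells at 4 h, and 4 were lower at 24 h. The remaining 8 and 10 were not called, and the shares over all features were 15.5% higher and 19.2% lower at 4 h and 16.8% lower at 24 h. Sort1, which encodes the sorting receptor sortilin, fell 7.09-fold at 4 h (adjusted p = 2.29e-07) and 29.8-fold at 24 h (adjusted p = 2.15e-09). Sorl1, a sorting receptor of the same family, was 2.35-fold lower at 4 h, and Itga4, the α chain of VLA-4, 2.59-fold lower at 24 h. Among Furin and 4 related convertase genes, Pcsk7 was 1.76-fold higher and Mbtps1 2.06-fold lower in WT cells at 4 h.

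The promoters of members that rose and of a member that fell are shown so that their sequences can be set beside these changes. A RefSeq promoter sequence on GRCm38.p6, a window of 300 bases that lies mostly upstream of the transcription start and is read on the gene's strand, was found for 7 of the 9 members, all but Insr and Itga6. Capitals mark matches on either strand to 3 motifs, the GC box (GGGCGG), an AP-1 motif (TGANTCA) and the κB motif, which do not overlap in these 4 sequences.
Itga5 (chr15:103366742-103367041, minus strand): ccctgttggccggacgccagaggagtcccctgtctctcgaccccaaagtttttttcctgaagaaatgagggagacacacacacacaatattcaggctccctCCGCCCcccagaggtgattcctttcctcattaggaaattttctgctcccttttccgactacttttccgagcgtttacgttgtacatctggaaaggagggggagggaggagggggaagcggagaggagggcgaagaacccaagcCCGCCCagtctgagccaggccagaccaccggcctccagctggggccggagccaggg
Notch2 (chr3:98013288-98013587, plus strand): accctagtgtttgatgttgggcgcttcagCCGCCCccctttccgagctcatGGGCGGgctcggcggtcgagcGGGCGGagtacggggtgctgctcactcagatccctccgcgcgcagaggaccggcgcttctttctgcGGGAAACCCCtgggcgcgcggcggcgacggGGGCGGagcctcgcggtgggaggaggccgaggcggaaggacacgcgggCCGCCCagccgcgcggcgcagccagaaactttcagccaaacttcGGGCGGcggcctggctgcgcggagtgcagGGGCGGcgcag
Met (chr6:17463707-17464006, plus strand): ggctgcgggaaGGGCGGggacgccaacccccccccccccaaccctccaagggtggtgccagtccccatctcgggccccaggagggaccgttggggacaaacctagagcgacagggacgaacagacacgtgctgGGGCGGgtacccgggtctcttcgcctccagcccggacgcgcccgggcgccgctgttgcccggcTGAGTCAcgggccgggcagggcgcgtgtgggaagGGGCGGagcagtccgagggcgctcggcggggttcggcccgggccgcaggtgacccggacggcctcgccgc
Lrp1 (chr10:127621099-127621398, minus strand): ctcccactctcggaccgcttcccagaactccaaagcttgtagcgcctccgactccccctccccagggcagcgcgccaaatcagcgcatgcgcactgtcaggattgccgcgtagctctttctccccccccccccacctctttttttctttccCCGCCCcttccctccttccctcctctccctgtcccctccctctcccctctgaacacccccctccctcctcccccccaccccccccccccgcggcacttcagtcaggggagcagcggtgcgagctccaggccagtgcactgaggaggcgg

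A GC box was present in all 7 member promoters and in 35.7% of the 32851 promoters of the table. The AP-1 motif was found in that of Met alone (7.81% of all promoters) and the κB motif in that of Notch2 alone (4.51%). The Itga5 promoter, of the gene with the earliest increase, held 2 GC boxes and neither of the other motifs within these 300 bases. The matches are descriptions of letters and were not tested against the changes.

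Among the members themselves, the profile of Insr over the 16 channels was most like that of Itga6 (Pearson's r = 0.986), followed by Lrp1 with Itga6 (0.935), and Notch2 was most like Itgav (0.879). Of 12750 named genes well above background in at least 8 channels, those most like Itga6 were Hfe (0.989) and Camk1d (0.988), and those most like Itga5 were Ereg and Ier3 (both 0.987). Igf1r was most like Vsig8 (0.984) and Timd4 (0.981), Insr most like Adgre5 (0.991) and Fam172a (0.990), and Lrp1 most like Aplp2 (0.989) and Ppp1r9a (0.982). For the Notch receptors the nearest genes were Sbno2 (0.964) and Caml (0.956) for Notch1, and Nrf1 (0.975) and Ptprj (0.972) for Notch2. Itgav was nearest to Slc12a4 (0.982) and Epha4 (0.978), and Met to Tpm4 (0.947) and Mtpn (0.940). These correlations rest on 8 arrays with KO and WT channels in common and are given as descriptions, since any gene with the same time course scores highly.

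None of the 9 genes was called between KO and WT cells at any time point with limma, and the smallest adjusted p was 0.542. Over all features 0 were called in unstimulated cells and at 1 h (0% of 36947), 0.00812% at 4 h and 0.0244% at 24 h. At an unadjusted p under 0.05 there were 1 member in unstimulated cells, none at 1 h or 4 h and 2 at 24 h, against 2126, 2018, 1594 and 1263 of the 36947 features. The methods' t-test also called none after Benjamini-Hochberg adjustment. The change of the KO/WT ratio from unstimulated cells to 1, 4 or 24 h, which compares the LPS responses of the genotypes, was called for no member and for 0% of all features, with 2 members and 1230 of the 36947 features under an unadjusted p of 0.05 at 24 h. A miss of the threshold with 2 arrays per time point does not show that the genotypes were alike, and the 95% intervals bound the differences.

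**Figure D4:**
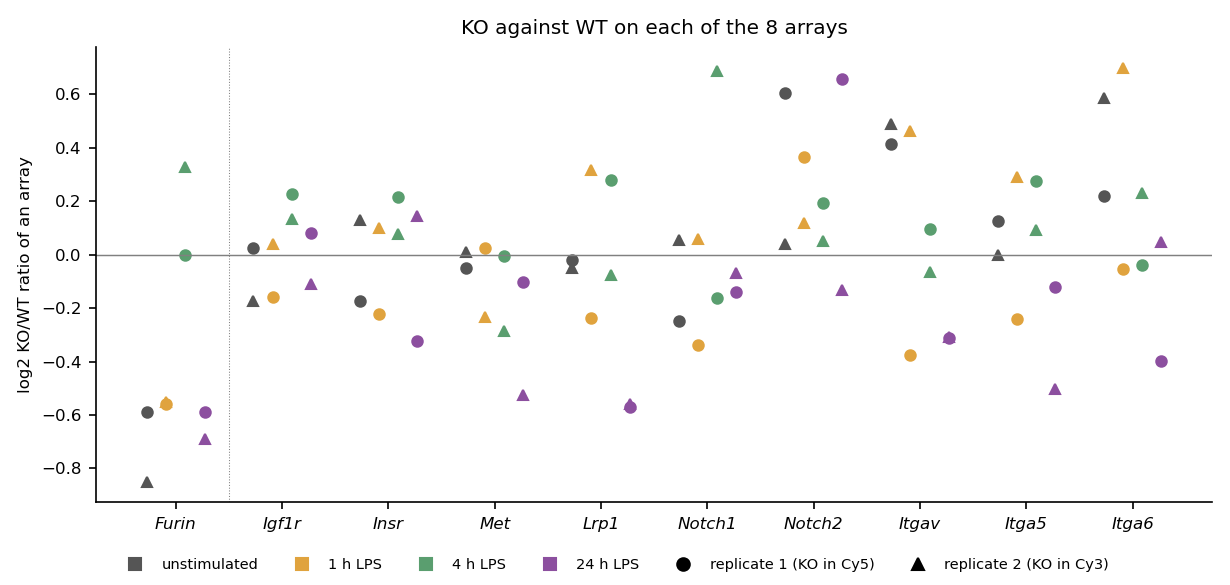
Log2 KO/WT ratio (y axis) of Furin and of the 9 genes on each of the 8 arrays; colors give the time point and symbols the replicate, which is also the dye orientation. Furin lay between -0.85 and -0.55 except at 4 h, Notch2 was above 0 on 7 of 8 arrays, Met was below 0 on 6 of 8, and Lrp1 was at -0.57 and -0.56 at 24 h.

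Lrp1 at 24 h was the member with the smallest adjusted p. Its log2 KO/WT ratio was -0.57 and -0.56 on the 24 h arrays, against -0.02 and -0.05 in unstimulated cells, -0.24 and 0.32 at 1 h and 0.28 and -0.08 at 4 h. The 24 h arrays thus agreed closely while those at 1 h and 4 h had opposite signs. The fitted ratio was 1.48-fold lower in KO cells (log2 -0.56 ± 0.14, 95% interval -0.88 to -0.25, adjusted p = 0.542, and 0.106 with the replicate as a block). Lrp1 lies on chromosome 10, as does Lyz2 whose locus carries the Cre, with 75 of the 973 measured genes of that chromosome between them. Lyz2 was 3.32-fold lower in KO cells at 24 h (adjusted p = 0.00631), a call lost when either 24 h array was left out (adjusted p = 0.0549 and 0.0825).

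Itgav had the largest fitted KO/WT ratio of the members in unstimulated cells, which did not pass the test. The ratios were 0.41 and 0.49 on the unstimulated arrays, -0.38 and 0.46 at 1 h, 0.09 and -0.06 at 4 h, then -0.31 and -0.31 at 24 h. The sign of this probe's ratio thus turned between unstimulated cells and 24 h on both replicates. The second Itgav probe had ratios of -0.61 to 0.23 over the 8 arrays, so that it did not reach the unstimulated ratios of the first. The unstimulated ratio was 0.45 ± 0.17 (1.37-fold, 95% interval 0.07 to 0.83, adjusted p = 0.730), and its change to 24 h was -0.76 ± 0.24 (95% interval -1.30 to -0.22, adjusted p = 1.00, and 0.257 with the replicate as a block).

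Notch2 was higher in KO cells on 7 of 8 arrays. The ratios were 0.61, 0.37, 0.19 and 0.66 on the arrays of replicate 1 and 0.04, 0.12, 0.05 and -0.13 on those of replicate 2, in the order of unstimulated, 1, 4 and 24 h. The excess was thus in replicate 1, where KO RNA was in Cy5. Averaged over the time points the ratio was 0.24 ± 0.10 (1.18-fold higher, 95% interval 0.02 to 0.46, adjusted p = 0.413), against 0.563% of features called in this comparison, and the adjusted p was 0.0324 with the replicate as a block. The second Notch2 probe had a mean ratio of 0.09, between -0.23 and 0.35 on the 8 arrays.

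For the other members the mean KO/WT ratio over the time points was close to 0. The 95% intervals were -0.11 to 0.12 for Igf1r, -0.17 to 0.15 for Insr, -0.17 to 0.15 for Itga5, -0.23 to 0.19 for Notch1 and -0.14 to 0.24 for Itgav. For Lrp1 the interval was -0.27 to 0.05. Met was lower by a ratio of -0.15 ± 0.06 (adjusted p = 0.474), with -0.10 and -0.53 at 24 h, and Itga6 was higher by 0.16 ± 0.09 (adjusted p = 0.641), with 0.22 and 0.59 in unstimulated cells and -0.40 and 0.05 at 24 h. These differences did not exceed the spread between arrays by the test.

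Among related genes, Itgb7, a β chain of leukocyte integrins, was 1.48-fold higher in KO cells over the time points (adjusted p = 0.0234), and Itgax was 1.30-fold lower (adjusted p = 0.0245). Each was called in a list of its own, with 1 of 8 β chains higher and 1 of 7 α chains with an I domain lower, where 0.241% of all features were higher and 0.322% lower. Thbs1, which encodes the LRP1 ligand thrombospondin-1 and is named as the only call among 18 ligands, was 1.61-fold higher (adjusted p = 0.0452). Without any of the arrays in turn the adjusted p of Itgax was 0.0572 to 0.115, that of Itgb7 0.0229 to 0.115 and that of Thbs1 0.0155 to 0.166. Of these, Itgb7 was still called only without replicate 1 at 24 h, and Thbs1 only without replicate 1 at 1 h. The call of Thbs1 was also lost with the processed signals of Feature Extraction (adjusted p = 0.0677), a minimum intensity of 7 (0.0505) and the mean of all probes (0.0631). No other receptor cleaved by convertases, Notch pathway gene, insulin, IGF and MET signaling gene or LRP1 partner was called between KO and WT over the time points. With the replicate as a block, when 2219 of all 36947 features were called, calls in these lists included Sort1, Sorl1, Dtx4, Maml2, Grb14 and Dab2, and Itgb2, Itgb3, Jag1 and Fn1 were called as well. These names were chosen after their values were seen.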

How the data were processed

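The authors read the scans with Agilent Feature Extraction 10.7.3, per the labels, and deposited the intensity of each spot in both dyes, not normalized between arrays. They also deposited a matrix of normalized log2 ratios of Cy5 to Cy3 (r 0.989 to 0.996 with the scanner ratios), used here only as an alternative. The files hold median, not mean, spot signals, and these were used.

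Intensities were processed in R 4.3.3 with limma 3.58.1, with normexp background correction (offset 50), a choice made here, and then, as in the study's methods, loess within arrays, quantile normalization between arrays, and a filter at a mean log2 intensity of 6. The offset shrinks fold changes of dim genes and lifts the dimmest signals, so that the filter at 6 removed few features. Outlier spots were left out, spots of a probe averaged, and the brightest probe taken for a gene. Probes were named through RefSeq identifiers (27509 of 55681, for 20887 genes), and unnamed probes were kept as transcripts. The array annotation and the reference table differ in genome build, so no gene coordinates are given. Chromosomes, the order of genes on them and promoter coordinates are those of RefSeq on GRCm38.p6.

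The log2 KO/WT ratio was modeled with lmFit over the 8 arrays, 1 coefficient per time point (4 residual degrees of freedom), and tested with eBayes over 36947 features. The mean over the time points treats the 8 arrays as independent, although replicate differences recurred between times. Its p-values therefore do not measure the spread between the replicates. LPS effects within a genotype came from limma's separate-channel fit over 36927 features (statmod 1.5.0, within-spot correlation 0.113). The fits were tested on simulated data with independent errors per array. Those data held no differences shared by replicates or dyes, so the test says nothing of their effect here. The named genes are all members, Furin, Lyz2, for each pathway list and comparison up to 2 of the largest increases and 2 of the largest decreases that were called with the same direction on both arrays, and for each member the 2 genes with the highest Pearson correlation. The members and lists were chosen with earlier results of these data known. Outside this rule are Thbs1, some genes named as called with the replicate as a block, and some of the named cell type markers. Thbs1 was named after its value was seen. Some genes of the lists are not reported here. Labels call the replicates biological, but give no animals, so the p-values measure the spread between these samples. The growth protocol names 4 h of stimulation for all samples, and the time points are those of the titles.

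Replicate differences of the KO/WT ratio correlated across genes between time points at r 0.475 to 0.679 over 6 pairs of times. Dye orientation goes with the replicate number. Pairing of samples by that number and dye effects on single genes therefore cannot be told apart. A fit with the replicate as a block, the other alternatives and the leaving out of each array are given in the closing section. For the KO/WT ratio that block is also the dye orientation. For the LPS effects a dye term was fitted beside the block.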

Additional observations from a re-analysis of the deposited data

How the results depend on the processing

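Besides the settings reported, 17 others were run, of which the deposited log2 ratios and the methods' t-test apply to the KO/WT ratios only. Between the settings reported and any other, no difference that was called in either changed sign, although 102 values past the threshold in neither case did. Among the other settings, a pair of differences of 24 h from 4 h had opposite signs, Insr in KO cells (0.32, called, with the mean of all probes and -0.07 without replicate 2 at 24 h) and Met in WT cells (-0.56, called, without replicate 2 at 24 h and 0.06 with normalization within arrays only). With the replicate as a block, and a dye term beside it for the LPS effects, the number of members called rose in several comparisons. At 1 h of LPS it went from 1 to 2 in WT and in KO cells (Itga6 in addition). For the mean KO/WT ratio it went from 0 to 1 (Notch2). It also went from 6 to 7 at 24 h in WT cells (Itgav) and from 5 to 6 at 24 h in KO cells (Notch2). For 24 h against 4 h in WT cells it went from 4 to 6 (Insr and Notch1). The block also raised the counts of all genes and transcripts called between KO and WT from 0 to 393 in unstimulated cells, from 0 to 213 at 1 h, from 3 to 210 at 4 h, from 9 to 216 at 24 h, and from 208 to 2219 for the mean, and for the change of the ratio from 0 to 13 at 4 h and from 0 to 78 at 24 h. With the processed signals of Feature Extraction, 2 members were called at 1 h in WT and in KO cells and 5 at 4 h in KO cells, where 6 of the 9 members passed the filter on dim signals; this setting moved the median of all features by -0.11 in WT and -0.10 in KO cells at 24 h, and by -0.10 and -0.10 at 4 h. With a minimum mean log2 intensity of 7, 2 members were called at 1 h in KO cells. For the contrast of 24 h with 4 h in KO cells, which was added after the values were seen, 7 members were called as reported, 3 with normalization within arrays only and 4 to 7 when an array was left out. Leaving out an array gave 1 to 2 members called at 1 h in WT cells, 7 to 9 at 4 h and 6 to 7 at 24 h in WT cells, 8 at 4 h and 5 to 6 at 24 h in KO cells, and 0 in every KO/WT comparison. Over all features it gave 1 to 161 calls for the mean KO/WT ratio, 1805 to 3294 at 1 h in WT cells (3140 reported) and 1444 to 2871 at 1 h in KO cells (2783 reported), and across all settings these last counts reached 4508 and 4384. Furin was no longer called over the time points when an array other than replicate 1 at 24 h was left out (adjusted p 0.0610 to 0.0915). The causes of these changes were not tested. The precision is limited by 2 arrays per time point, and Insr at 4 h by the background.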
